A study of Mus musculus with 2 samples.

Results

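A set of 9 genes of cell-surface proteins was followed in single sorted blood progenitors: Kit, Ly6a, Cd34, Flt3, Cd48, Slamf1, Procr, Cd27 and Esam. They are the genes whose products flow cytometry uses to gate and subdivide mouse blood stem and progenitor cells, and they were taken by name from the 31053 genes of the count tables. All 9 were found in both tables. The sorted LSK gate took cells with little or no lineage antigen, Sca1 and a high level of c-Kit. Cells had first been enriched on magnetic beads, by lineage depletion or by CD117 (c-Kit) capture, and which was used for either library is not given. The mice were C57BL/6, and no genotype change or agent is named in the labels. All mice behind both libraries had been injected with Hepa1-6 cells, a hepatoma line of mouse origin, into the left liver lobe at 6 to 8 weeks of age, and no tumour-free mice were analysed here. The days from injection to harvest and the number of mice per library are not given in the sources used here. LSK cells of the bone marrow gave 1 library and LSK cells of the spleen gave 1 library, so there is no replicate check of any difference and no p-value, and all intervals (95%) cover counting error only. Tissue, sort and library preparation cannot be told apart.

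Blood stem cells and their first descendants are defined by combinations of surface proteins. Kit is the receptor for stem cell factor, and Ly6a encodes Sca1, a small lipid-anchored protein; both define the gate used here. Inside that gate, the cytokine receptor Flt3 marks progenitors primed for lymphoid and myeloid fates, while the SLAM protein CD150 (Slamf1), the protein C receptor EPCR (Procr) and the junction protein ESAM (Esam) mark the most immature cells. CD48 (Cd48), the sialomucin CD34 (Cd34) and the TNF receptor family member CD27 (Cd27) separate further steps. A sort reads protein, and the counts here read RNA.

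Promoters were read for 7 of the 9 members from RefSeq (GRCm38.p6), as 250 bases before to 50 bases after the annotated start. Those of the gate gene Kit, of Cd34, and of Flt3 and Cd48, which differed in opposite directions between the tissues below, are shown 5′ to 3′ on the gene's strand. They lie at chr5:75574737-75575036 (Kit, plus strand, the first of 2 starts listed), chr1:194938571-194938870 (Cd34, plus strand), chr5:147400440-147400739 (Flt3, minus strand) and chr1:171681742-171682041 (Cd48, plus strand). Capitals mark matches, on either strand, to letters bound by factor families known in blood progenitors: GATAA for GATA factors, TGTGGT for RUNX factors, AGGAAG for ETS factors, and CAGCTG for factors that bind an E-box.
Kit: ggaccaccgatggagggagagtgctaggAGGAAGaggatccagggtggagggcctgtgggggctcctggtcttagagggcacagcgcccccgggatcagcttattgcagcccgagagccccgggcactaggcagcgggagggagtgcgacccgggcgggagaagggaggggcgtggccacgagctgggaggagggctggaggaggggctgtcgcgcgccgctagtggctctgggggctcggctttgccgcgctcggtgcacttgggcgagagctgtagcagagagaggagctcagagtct
Cd34: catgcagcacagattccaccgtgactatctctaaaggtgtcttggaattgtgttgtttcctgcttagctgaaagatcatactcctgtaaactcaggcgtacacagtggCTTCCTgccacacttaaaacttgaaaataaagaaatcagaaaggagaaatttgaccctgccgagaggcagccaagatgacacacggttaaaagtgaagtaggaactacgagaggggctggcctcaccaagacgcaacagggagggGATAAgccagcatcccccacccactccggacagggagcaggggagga
Flt3: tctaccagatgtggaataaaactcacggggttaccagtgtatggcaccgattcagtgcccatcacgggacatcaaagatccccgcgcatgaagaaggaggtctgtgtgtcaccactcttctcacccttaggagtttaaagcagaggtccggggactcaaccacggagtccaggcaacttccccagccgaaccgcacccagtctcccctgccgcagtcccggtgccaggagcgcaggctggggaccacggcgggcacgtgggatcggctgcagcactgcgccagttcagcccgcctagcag
Cd48: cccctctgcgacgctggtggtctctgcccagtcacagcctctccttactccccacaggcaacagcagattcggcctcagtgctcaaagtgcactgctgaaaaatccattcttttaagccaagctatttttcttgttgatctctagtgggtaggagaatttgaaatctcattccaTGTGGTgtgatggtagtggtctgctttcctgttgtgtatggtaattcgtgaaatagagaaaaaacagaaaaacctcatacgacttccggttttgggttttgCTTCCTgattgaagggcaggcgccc
Kit held 1 match of the ETS motif, and Cd34 held 1 of the ETS motif and 1 of the GATA motif. Cd48 held 1 of the RUNX motif and 1 of the ETS motif, and Flt3 held none of the 4 in this window. Of 27025 promoters of the same length, 35.2% held the ETS letters, 25.8% the GATA letters, 16.9% the RUNX letters and 16.1% the E-box letters, so such matches are common. The GC content was 69.0% in the Kit window, 61.0% in Flt3, 50.0% in Cd34 and 47.3% in Cd48. These are letters in a window, not binding sites. The members lie on chromosomes 5 (Kit, Flt3), 15 (Ly6a), 1 (Cd34, Cd48, Slamf1), 2 (Procr), 6 (Cd27) and 9 (Esam), and Cd48 and Slamf1 follow each other there, at 171682009 to 171705258 and 171767127 to 171801184.

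The bone marrow library held 10088 cells with a median of 5991 unique molecular identifiers (UMIs) and the spleen library 6546 cells with a median of 9978. Levels are given as CPM, the UMIs of a gene in a sum over cells scaled to a total of 1000000 UMIs. Shares of cells with a UMI were read after random thinning to 2000 UMIs a cell, which left out 87 bone marrow and 457 spleen cells, 300 of the latter in the cluster MCP, whose median was 1827 UMIs. At that depth 1 UMI equals 500 CPM. The authors' deposited table puts each cell in 1 of 8 clusters, whose names (HSC-1 to HSC-3, LP, MEP, MP, MCP, DCP) it does not spell out. The authors' atlas-based labels name a dendritic cell, macrophage, T cell, thymocyte, NK cell, B cell, mast cell or basophil for 120 bone marrow cells (1.19%) and 3529 spleen cells (53.9%), called other cell types below. They were 99.6% of spleen MP, 99.6% of spleen MCP, 82.7% of spleen LP, 30.02% of spleen HSC-1 and 0.0396% of bone marrow HSC-1. The libraries shared 16 cell barcodes, and the members past 2-fold over all cells were the same genes without those cells.

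Genes of 10 lineage antigens, a list set for this reading, were checked first. Which of them the lineage antibodies of the sort covered is not stated here. Cd3e of T cells had 0 UMIs in marrow cells and 41 in spleen cells and Ly6g of neutrophils 1 and 1. Other antigens were plain in the spleen library. Cd8a, a coreceptor of T cells and of one dendritic subset, stood at 0.271 CPM in marrow cells and 37.4 in spleen cells. Fcer1a, the IgE receptor chain of mast cells and basophils, stood at 0.366 and 34.1 CPM, and the dendritic integrin Itgax at 1.21 and 20.1 CPM. Itgam, the integrin CD11b of myeloid cells, stood the other way at 15.5 and 4.77 CPM. Of 10 lineage antigens, 4 had a mean of at least 10 CPM, 3 of them past 2-fold toward the spleen and 1 past 2-fold toward the marrow. Of 8644 genes with that mean, 4.15% were past 2-fold toward the spleen and 6.55% toward the marrow. Within HSC-1 without other cell types, the list summed to 29.4 CPM in marrow cells and 43.2 in spleen cells.

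Kit transcripts were present in every cluster of both libraries. Kit stood at 319 CPM in bone marrow HSC-1 (exact Poisson interval 312 to 326) and 317 in spleen HSC-1 (306 to 327), where it was found in 46.2% and 45.3% of thinned cells. The lowest level was in spleen MEP, at 143 CPM against 245 in bone marrow MEP. The highest was in spleen MCP, at 1306 CPM (1251 to 1364), where 87.4% of thinned cells held a UMI. The 36 bone marrow MCP cells stood at 526 CPM (433 to 633). Between these ends, the order in the bone marrow was HSC-1, DCP (280), HSC-3 (253), HSC-2 (252), MEP, MP (210) and LP (188), where the intervals of HSC-3, HSC-2 and MEP overlapped, as did those of MEP and MP, and of MP and LP. Spleen LP stood at 299.5 CPM, above bone marrow LP, and spleen MP, DCP and HSC-3 at 189, 170 and 217. The 8 mast cell and basophil markers summed to 4434 CPM in bone marrow MCP and 27134 in spleen MCP, with none at 0. The share of spleen Kit UMIs from MCP, 10.6%, compares with its 1.83% of all spleen UMIs and its 8.45% of spleen cells.

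Ly6a transcripts varied far more, from near 0 in MEP to the peak in spleen MCP. In MEP, Ly6a stood at 5.96 CPM in the bone marrow (3.85 to 8.79) and 5.31 in the spleen (4.54 to 6.18), and 1.16% and 1.24% of thinned cells held a UMI. These cells had passed a Sca1 gate, and their Ly6a RNA was the lowest of all clusters in both tissues; how much of it is free RNA was not tested. HSC-1 stood at 108 and 130 CPM (19.0% and 21.1% of thinned cells), HSC-2 at 45.4 and 61.2, and HSC-3 at 43.9 and 48.0. Spleen MP stood at 144 CPM (138 to 150) and bone marrow MP at 124 (103 to 148), with overlapping intervals. Spleen MCP was highest at 680 CPM (640 to 722), with 39.1% of thinned cells, while bone marrow MCP, with 12 UMIs, stood at 56.4 (29.1 to 98.5). In the spleen, 32.1% of Ly6a UMIs came from MP, 20.4% from HSC-1 and 15.4% from MCP. Ly6a belongs to a cluster of related genes, and how reads that fit more than 1 of them were counted is not given in the sources used here.

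**Figure D1:**
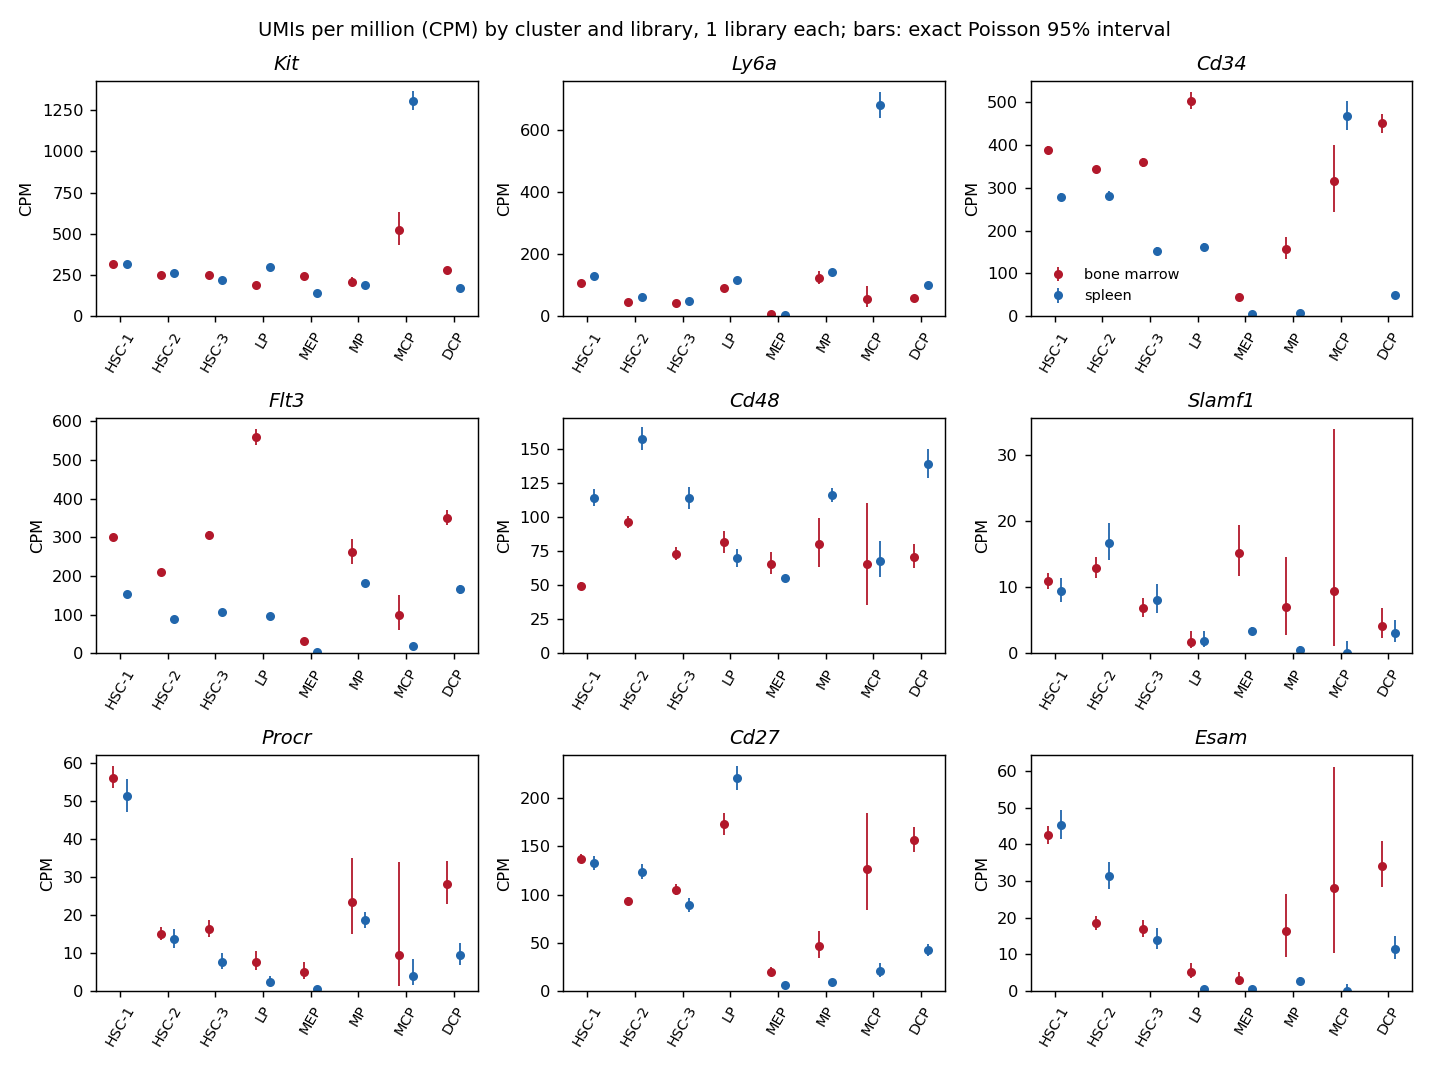
CPM of the 9 genes (y axis, linear from 0) in the authors' 8 clusters (x axis) for the bone marrow and spleen libraries; points are sums over cells of 1 library and bars exact Poisson 95% intervals. Kit (1306 CPM) and Ly6a (680 CPM) peak in spleen MCP, Ly6a is lowest in MEP, and the spleen points of Flt3 lie below the bone marrow points in all clusters.

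The gate asks for both proteins on 1 cell, so the RNAs of Kit and Ly6a were read together per cell. In the bone marrow, 622 of 10001 thinned cells held a UMI of each, 6.22% (exact Clopper-Pearson interval 5.75 to 6.71%). In the spleen, 417 of 6089 did, 6.85% (6.23 to 7.51%), and the intervals overlapped. Averaged over all possible draws of 2000 UMIs, the shares were 6.06% and 7.03%, so the order of the tissues was the same without the draw. Without other cell types the spleen share was 5.11% (4.35 to 5.96%), under the 6.28% of the bone marrow, so the order of the tissues changed. MEP then made up 881 of 3015 spleen cells and 344 of 9890 marrow cells. Averaged over all draws, HSC-1 without other cell types had 8.37% in the marrow and 9.66% in the spleen, and MEP 0.543% and 0.338%. The part of MEP and of the other cell types in the order was not tested. At 3700 UMIs a cell both tissues stood at 13.7%, while at 1000 UMIs a cell the spleen share was the higher one (closing section). As deposited, without thinning, the shares were 26.8% and 37.9% at unequal depth.

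Kit and Ly6a were found in the same cell about as often as their separate shares give when multiplied. That product was 6.18% in marrow cells and 6.24% in spleen cells, and the observed share over the product was 1.01 and 1.10. Averaged over all draws it was 0.985 and 1.13. Without other cell types the averaged ratio was 0.987 and 1.17. Within clusters, over all cells, it was 0.959 and 0.995 in HSC-1, 1.01 and 1.04 in HSC-2, and 0.980 and 0.993 in HSC-3. It was 0.957 and 0.951 in LP, 0.985 and 1.04 in DCP and 0.957 in spleen MCP. The ratio lay further from 1 in MP (0.849 and 1.11) and in MEP (1.30 and 1.16), where few cells held Ly6a. The clusters differed in the share itself: HSC-1 had 8.69% (7.92 to 9.50%) and 8.84% (7.40 to 10.5%), HSC-2 4.02% and 4.22%, and spleen MP 6.95%. MEP had 0.581% (0.0705 to 2.08%) and 0.561% (0.183 to 1.31%). Spleen MCP had 33.2% (27.4 to 39.4%), although 300 of its 553 cells were too shallow to enter.

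**Figure D2:**
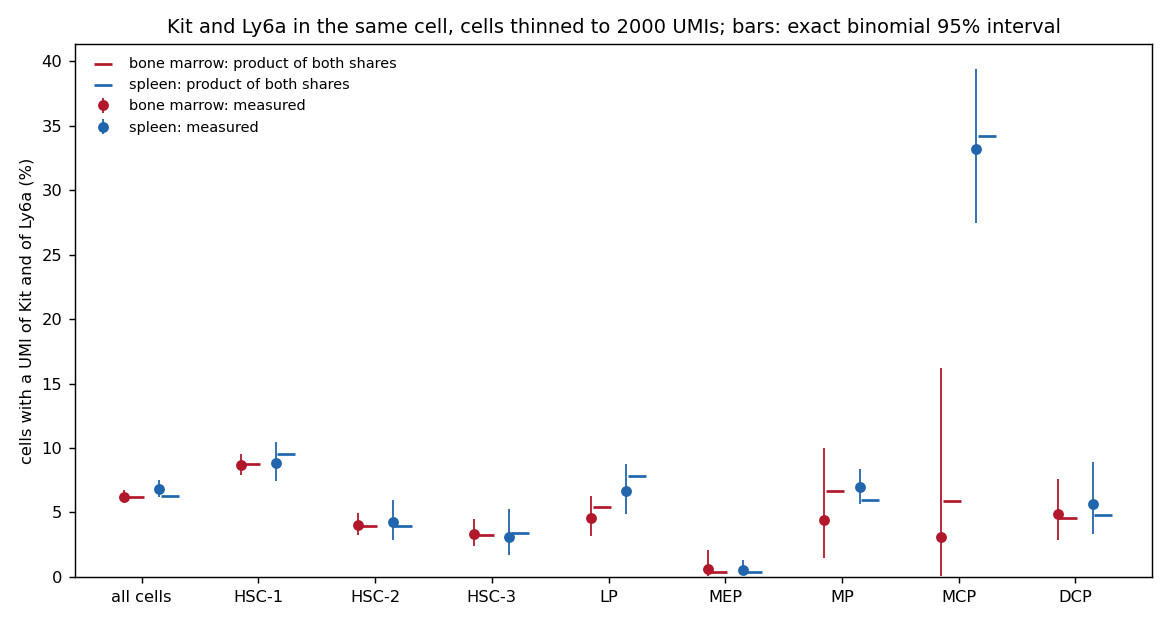
Share of cells with at least 1 UMI of Kit and of Ly6a (y axis, percent) in all cells and in each cluster (x axis), cells thinned to 2000 UMIs; points are measured shares with exact binomial 95% intervals and dashes the product of the separate shares. Points lie near their dashes, and spleen MCP (33.2%) stands above all other clusters.

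The cells with both transcripts lay in different clusters in the 2 tissues. In the bone marrow, 69.8% of the 622 were HSC-1 cells (66.0 to 73.4%) and 13.8% HSC-2. In the spleen, 29.5% of the 417 were HSC-1 (25.2 to 34.1%), 23.5% MP, 20.1% MCP and 11.03% LP. Their other transcripts also differed between the tissues, as Flt3 and Cd34 did over all thinned cells (given below). Flt3 was found in 42.9% of the bone marrow cells with both and 20.6% of those in the spleen. Cd34 was found in 51.0% and 33.6%, and Cd34 and Flt3 together in 24.3% and 6.72%. The Flt3 shares lay close to those of all thinned cells of each tissue. Cd34 in the spleen was found more often than over all thinned spleen cells. Dendritic markers summed to 399 CPM in these bone marrow cells and 14970 in these spleen cells, mast cell and basophil markers to 6.43 and 9493, and stem cell markers to 1542 and 463. Their part in the difference was not tested. Limited to HSC-1 cells with both, Flt3 was found in 41.7% (37.0 to 46.5%) and 25.2% (17.8 to 33.8%), and Cd34 in 50.0% and 44.7%, with overlapping intervals for Cd34. These Flt3 shares lay close to those of all thinned HSC-1 cells, and spleen HSC-1 here includes other cell types.

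Flt3, the receptor that marks the step from stem cell to primed progenitor, was lower in the spleen in every cluster. It stood at 302 CPM in bone marrow HSC-1 (295 to 309) and 154 in spleen HSC-1 (147 to 162), found in 41.3% and 25.7% of thinned cells. HSC-2 stood at 209 and 89.2 CPM, HSC-3 at 307 and 108, DCP at 350 and 166, and MP at 262 and 183. The highest level was in bone marrow LP, 558 CPM with 65.7% of thinned cells, against 97.2 CPM and 13.4% in spleen LP. The lowest was in spleen MEP at 3.73 CPM, against 32.4 in bone marrow MEP. No interval of a bone marrow cluster overlapped that of the same cluster in the spleen.

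Cd34 was lower in the spleen in 7 clusters and higher in MCP. HSC-1 stood at 389 and 278 CPM, HSC-2 at 343 and 281, HSC-3 at 360 and 153, and LP at 503 and 162. The gap was widest in MP, 158 and 7.89 CPM, and in DCP, 450 and 50.3 CPM, clusters of which other cell types made up 99.6% and 84.8% in the spleen. Spleen MEP stood at 5.85 CPM against 44.3 in the bone marrow. MCP stood at 315 CPM (244 to 400) in the bone marrow and 468 (434 to 503) in the spleen, higher in the spleen, where 54.9% of thinned cells held a UMI.

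Of the SLAM pair, Cd48 was higher in the spleen in HSC-1, HSC-2 and HSC-3, and Slamf1 was sparse. Cd48, whose protein is gained as stem cells become progenitors, stood at 49.9 CPM in bone marrow HSC-1 (47.3 to 52.7) and 115 in spleen HSC-1 (108 to 121), and 8.75% (7.98 to 9.56%) and 17.6% (15.7 to 19.7%) of thinned cells held a UMI. Bone marrow HSC-1 was its lowest cluster in either library. HSC-2 stood at 96.4 and 158 CPM, HSC-3 at 73.3 and 114, DCP at 71.0 and 139, and MP at 80.1 and 116. In LP (81.6 and 69.9) and MEP (66.0 and 55.1) the bone marrow value was the higher one, but LP turned without other cell types, to 81.2 and 108 CPM, and MEP turned with thinning (log2 ratio 0.045). Slamf1, the gene of CD150, had 735 UMIs in marrow cells and 448 in spleen cells. It stood at 10.9 and 9.48 CPM in HSC-1, 12.9 and 16.8 in HSC-2, and 15.3 and 3.35 in MEP. In spleen MCP it had 0 UMIs, which allows up to 1.91 CPM.

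Procr and Esam, genes of the most immature gates, were concentrated in HSC-1. Procr stood at 56.1 CPM in bone marrow HSC-1 (53.3 to 59.0) and 51.2 in spleen HSC-1 (47.0 to 55.6), with overlapping intervals. It stood at 14.96 and 13.5 CPM in HSC-2 and at 5.003 and 0.379 in MEP. Next in the bone marrow came DCP, at 28.1 CPM against 9.36 in spleen DCP, and next in the spleen MP, at 18.5 CPM against 23.3 in bone marrow MP. MP gave 26.3% of spleen Procr UMIs beside the 51.1% from HSC-1. Esam stood at 42.6 and 45.3 CPM in HSC-1 and at 18.4 and 31.4 in HSC-2, where the spleen was higher, and at 34.2 and 11.4 in DCP. It had 2 UMIs in spleen LP, 14 in spleen MEP and 0 in spleen MCP. Cd27, a costimulatory receptor found on lymphoid cells and progenitors, stood at 137 and 133 CPM in HSC-1 and was highest in LP, at 173 and 221 CPM. In the spleen it was low in MP (8.99 CPM), MEP (5.82) and MCP (20.4), against 46.6, 19.5 and 127 in the bone marrow.

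The first comparison set the spleen library against the bone marrow library over all cells, where fewer cells of a type and less RNA per cell cannot be told apart. Cd34 and Flt3 were far lower in the spleen and Kit, Ly6a and Cd48 differed little. Cd34 stood at 359 and 102 CPM, bone marrow first here and below, a 3.51-fold lower level (3.42 to 3.59, the exact interval of a ratio of 2 Poisson counts), and 49.0% and 21.0% of thinned cells held a UMI. Flt3 stood at 281 and 87.8 CPM, 3.20-fold lower (3.12 to 3.29), with 40.8% and 19.4% of thinned cells. Procr stood at 29.7 and 12.7 CPM (2.34-fold lower) and Esam at 25.8 and 11.4 (2.27-fold lower). Cd27 stood at 115 and 58.3 CPM, a ratio of 0.507, just inside the 2-fold limit. Kit stood at 273 and 225 CPM (ratio 0.825, 0.809 to 0.842), Ly6a at 70.5 and 80.6 (1.14, 1.10 to 1.19) and Cd48 at 71.2 and 94.9 (1.33, 1.29 to 1.38). Slamf1 stood at 9.97 and 5.21 CPM. Genes were counted by a rule of size, 2-fold on log2((spleen CPM + 1)/(marrow CPM + 1)), where their mean over both libraries reached 10 CPM, which Slamf1 did not. By it 4 of 8 measured members (Cd34, Flt3, Procr, Esam) were lower and 0 were higher. Of 8644 genes, 6.55% were lower and 4.15% higher by that rule, and their median log2 ratio was −0.11.

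How the cells were pooled moved most of these values, and Flt3 was the member at least 2-fold lower under each of 9 alternatives (log2 ratio −2.39 to −1.11). The makeup differed between the tissues, and 36.8% of UMIs in the spleen came from MEP, against 5.69%. With other cell types alone left out, 4 of 8 members (Ly6a, Cd34, Flt3, Procr) were lower, where 9.49% of genes were. With MEP and other cell types both left out, a choice made after seeing the data, Flt3 stood at 297 and 126 CPM (log2 ratio −1.23) and was the 1 member past 2-fold, among 0.402% of genes lower and 0.436% higher. Cd34 then stood at 382 and 311 CPM (−0.30), Cd48 at 71.3 and 135 (0.91), Kit at 275 and 280 (0.02), Ly6a at 74.7 and 77.8 (0.06) and Procr at 31.4 and 32.0 (0.03). Esam (0.59), Slamf1 (0.54) and Cd27 (0.22) then stood higher in the spleen, against −1.11, −0.82 and −0.97 over all cells. Ly6a had no stable side: its log2 ratio was 1.16 with each cell weighted alike and −1.03 with other cell types alone left out. Kit ranged from −0.46 to 0.27.

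**Figure D3:**
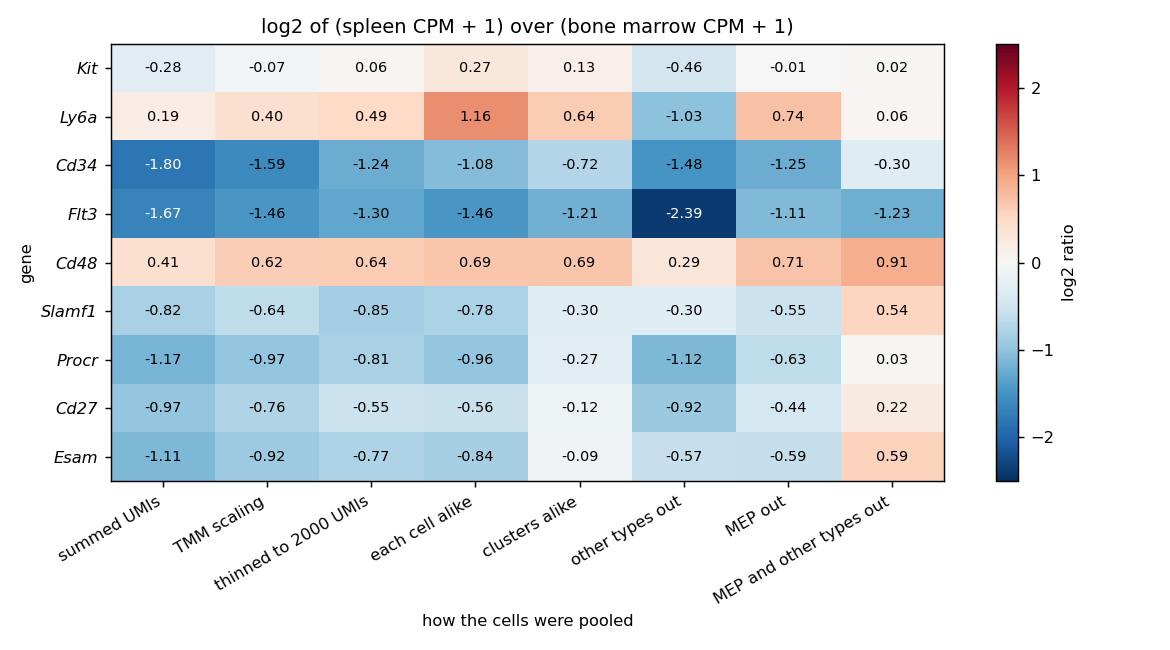
log2 of (spleen CPM + 1) over (bone marrow CPM + 1) for the 9 genes (rows) under 8 ways of pooling the cells (columns); red is higher and blue lower in the spleen, and 1 library stands behind each side. Flt3 lies at −1.11 or lower in all columns and Cd48 above 0 in all, while Ly6a runs from −1.03 to 1.16.

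The next comparison was made inside clusters, where cells share the authors' cluster name. In HSC-1, Flt3 was nearly 2-fold lower and Cd48 over 2-fold higher in the spleen, and the other 7 members had ratios between 0.715 and 1.21. Over all HSC-1 cells, Cd48 was 2.30-fold higher (2.12 to 2.48), and Flt3 1.96-fold lower (1.86 to 2.07), just short of the limit. By the rule of size 1 of 9 members was higher, where 2.27% of 8716 genes were, and 0 were lower, where 0.711% were. Spleen HSC-1 also carried markers of other cells: 9 dendritic markers summed to 354 CPM in marrow cells and 9654 in spleen cells, with none at 0, and 8 mast cell and basophil markers to 8.21 and 817.

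Without other cell types, HSC-1 had 5047 bone marrow and 1077 spleen cells, and the dendritic sum was 354 and 571 CPM. The mast cell sum was then 8.21 and 139 CPM, granulocyte progenitor markers summed to 799 and 597, and T and innate lymphoid markers to 24.45 and 111.1. Cd48 then stood at 49.9 and 117 CPM, 2.35-fold higher (2.15 to 2.55), and Flt3 at 302 and 154, 1.96-fold lower (1.85 to 2.09), each as large as with those cells. Among all genes 0.425% were then higher and 0.437% lower. Kit stood at 319 and 329 CPM (ratio 1.03, 0.987 to 1.08), Ly6a at 108 and 117 (1.08, 1.00 to 1.17) and Cd34 at 389 and 356 (0.915, 0.877 to 0.954). Slamf1 stood at 10.9 and 12.8 (1.17, 0.924 to 1.48) and Procr at 56.1 and 65.0 CPM (1.16, 1.05 to 1.28). Cd27 stood at 137 and 172 CPM (1.25, 1.17 to 1.33) and Esam at 42.6 and 60.5 (1.42, 1.27 to 1.58). Stem cell markers summed to 1525 and 1196 CPM in these cells, a lower sum in the spleen, while Procr and Esam were not lower. Of 7 measured stem cell markers, 1 was at least 2-fold higher in the spleen and 0 at least 2-fold lower, where 0.425% and 0.437% of all genes were.

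HSC-2 and HSC-3 gave the same sides for both genes. Over all HSC-2 cells Flt3 was 2.35-fold lower, 1 of 9 members where 0.659% of genes were. Without other cell types, Flt3 in HSC-2 was 2.16-fold lower (2.001 to 2.34), at 209.5 and 96.8 CPM, and was the 1 member past 2-fold of 9, where 0.578% of genes were lower. Cd48 stood at 96.4 and 168 CPM there (1.74-fold higher) and Esam at 18.4 and 35.4 (1.92-fold). Granulocyte progenitor markers in these cells summed to 5924 and 1362 CPM, T and innate lymphoid markers to 13.1 and 184, and dendritic markers to 375 and 743. In HSC-3 without other cell types, Flt3 stood at 307 and 100 CPM, 3.06-fold lower (2.76 to 3.39), again the 1 member past the limit, where 1.37% of genes were lower, and Cd34 at 360 and 223 (1.62-fold lower). Slamf1 stood at 6.75 and 13.7 CPM there, a ratio of 2.03 (1.42 to 2.87) that the pseudocount brings under the limit (log2 0.92). Erythroid markers summed to 99.8 and 499.9 CPM in these HSC-3 cells, granulocyte progenitor markers to 1090.1 and 467.5, and T and innate lymphoid markers to 28.7 and 127. Over all HSC-3 cells, Cd34, Flt3 and Procr were at least 2-fold lower, 3 of 8 members where 2.31% of genes were. In LP 120 spleen cells remained without other cell types, and Flt3 stood at 562 and 226 CPM, 2.49-fold lower (2.19 to 2.85), the 1 of 6 members past the limit, where 3.91% of genes were lower. T and innate lymphoid markers still summed to 62.2 and 1259.9 CPM in these LP cells, against 80.8 and 3543 over all LP cells, and granulocyte progenitor markers to 548 and 208. The part of these markers in the Flt3 and Cd48 differences of HSC-1, HSC-2, HSC-3 and LP was not tested. Over all LP cells, Flt3 was 5.74-fold and Cd34 3.11-fold lower, 2 of 6 members where 4.93% of genes were.

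**Figure D4:**
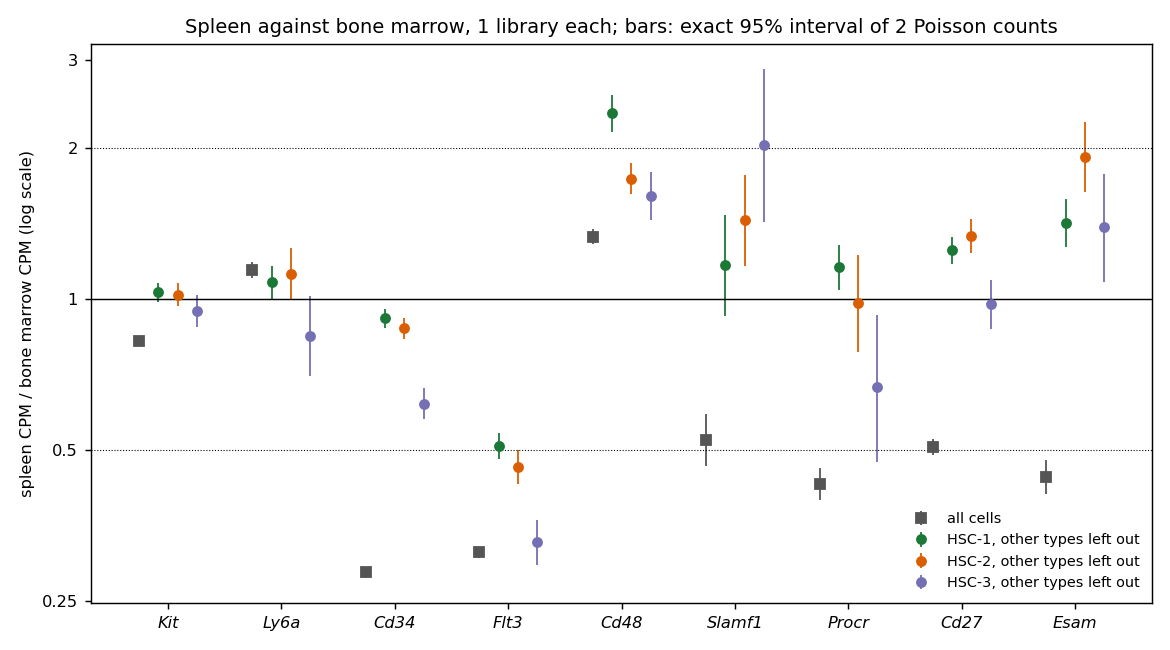
Ratio of spleen CPM to bone marrow CPM (y axis, log scale) for the 9 genes over all cells (squares) and within HSC-1, HSC-2 and HSC-3 without other cell types (circles); bars are exact 95% intervals, 1 library a side, and dotted lines mark 2-fold. Flt3 lies below 1 and Cd48 above 1 in all 4 sets, and Procr, Cd27 and Esam lie below 1 over all cells and above 1 in HSC-1.

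The erythroid cluster MEP differed in another manner. By CPM, Kit was 1.72-fold lower in the spleen (1.604 to 1.84) and Flt3 8.69-fold lower (6.74 to 11.2). Cd34 was 7.58-fold lower (6.15 to 9.34) and Cd27 3.36-fold lower (2.56 to 4.38), while Cd48 stood at 66.0 and 55.1 CPM. Median depth in MEP was 11230 UMIs in marrow cells and 36084 in spleen cells. Kit had 1030 UMIs in 357 marrow cells and 4518 in 891 spleen cells, more per cell in the spleen. Cd48 (277 and 1743 UMIs) was also higher per cell there. Flt3 (136 and 118), Cd34 (186 and 185) and Cd27 (82 and 184) were lower per cell. With thinned cells the log2 ratio of Kit was −0.47, against −0.78 without thinning. Of 5 measured members 3 were lower, where 4.70% of genes were, and the same 3 of 5 without other cell types, where 4.76% were. The authors' second set of reference labels was read over all clusters, not within MEP alone. There 628 spleen cells and 69 bone marrow cells carried the last of the names Ery-1 to Ery-3. Within cells named Ery-1, Kit stood at 309 and 250 CPM and Cd34 at 55.0 and 36.7. Within Ery-3, Kit stood at 151 and 126 CPM and Cd34 at 14.8 and 3.39. Kit and Cd34 were lower in Ery-3 than in Ery-1 in both tissues. In DCP 5 of 8 members were at least 2-fold lower, where 16.5% of genes were, and in MP 2 of 7, where 14.4% were. Both clusters are mostly other cell types in the spleen, and MP is so in the bone marrow too (67.8%).

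The same reference labels gave other extremes. Slamf1 was highest in 125 bone marrow cells labelled MkP-1, at 50.6 CPM, where Esam stood at 45.7, Cd48 at 17.7 and Flt3 at 40.1. In 3 spleen labels named Ba-1, Ba-3 and Ba-4 (112, 98 and 370 cells), Kit stood at 1180, 1266 and 1436 CPM, Ly6a at 798, 1348 and 699, and Cd34 at 593, 498 and 476. Slamf1 and Esam had 0 UMIs in all 3. In 109 spleen cells labelled E/B, Kit stood at 728 CPM and Ly6a at 60.1, so a high Kit level went with a Ly6a level far under that of the Ba labels. In cells labelled HSC-1 by that reference (7893 and 1830 cells), Flt3 stood at 321 and 137 CPM, Cd48 at 64.7 and 138, and Procr at 38.9 and 40.6.

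Pairs of members were then counted in single HSC-1 cells, thinned, against the product of their shares, for all 36 pairs and with no test. The counts come from 1 random draw of UMIs, were not averaged over draws, and are given without intervals. In the bone marrow, Slamf1, Procr and Esam were found with Flt3 or Cd48 in fewer cells than the product gives. Slamf1 and Flt3 were found together in 17 of 4997 cells, where the product gives 43.8 cells (ratio 0.388). Slamf1 and Cd48 were found together in 1 cell, where the product gives 9.27. Cd48 and Esam were found together in 23 cells (0.606 of the product) and Cd48 and Procr in 31 (0.671). On the other side, Slamf1 and Procr shared 16 cells (1.43), Slamf1 and Esam 13 (1.41), and Procr and Esam 55 (1.20). Counts this small carry wide counting error, and whether these pairs exceed the product was not tested. In 1391 spleen HSC-1 cells, Procr and Esam shared 22 cells (1.65), Ly6a and Procr 42 (1.38) and Cd34 and Cd27 167 (1.35), while Cd48 and Procr shared 20 (0.783). Kit with the other 8 members stayed between 0.952 and 1.02 in the bone marrow.

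The authors' deposited table holds a stemness score per cell, whose making is not given in the sources used here. Cells of HSC-1 were split at the quartiles of that score within each library, so the groups cover different scores: the highest runs from 0.0121 to 0.552 in the bone marrow and from 0.154 to 1.13 in the spleen. Procr, Ly6a and Flt3 were lower, and Cd48 higher, in the group with the highest score. In the bone marrow, Procr stood at 71.5 CPM in the lowest group (64.8 to 78.8) and 39.9 in the highest (35.6 to 44.6), Ly6a at 123 and 89.0, Flt3 at 335 and 280, and Cd48 at 28.3 (24.1 to 33.0) and 73.3 (67.4 to 79.6). In the spleen, Procr stood at 69.1 and 32.6 CPM, Ly6a at 167 and 95.8, Esam at 59.3 and 30.9, and Cd48 at 68.1 and 152. Depth was higher at higher scores, from a median of 4295 to 5541 UMIs in the bone marrow and from 5608 to 9065 in the spleen, and its part was not tested. In each of the 4 groups Cd48 was higher and Flt3 lower in the spleen, with intervals that did not overlap, but groups of the same rank are not matched in score.

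**Figure D5:**
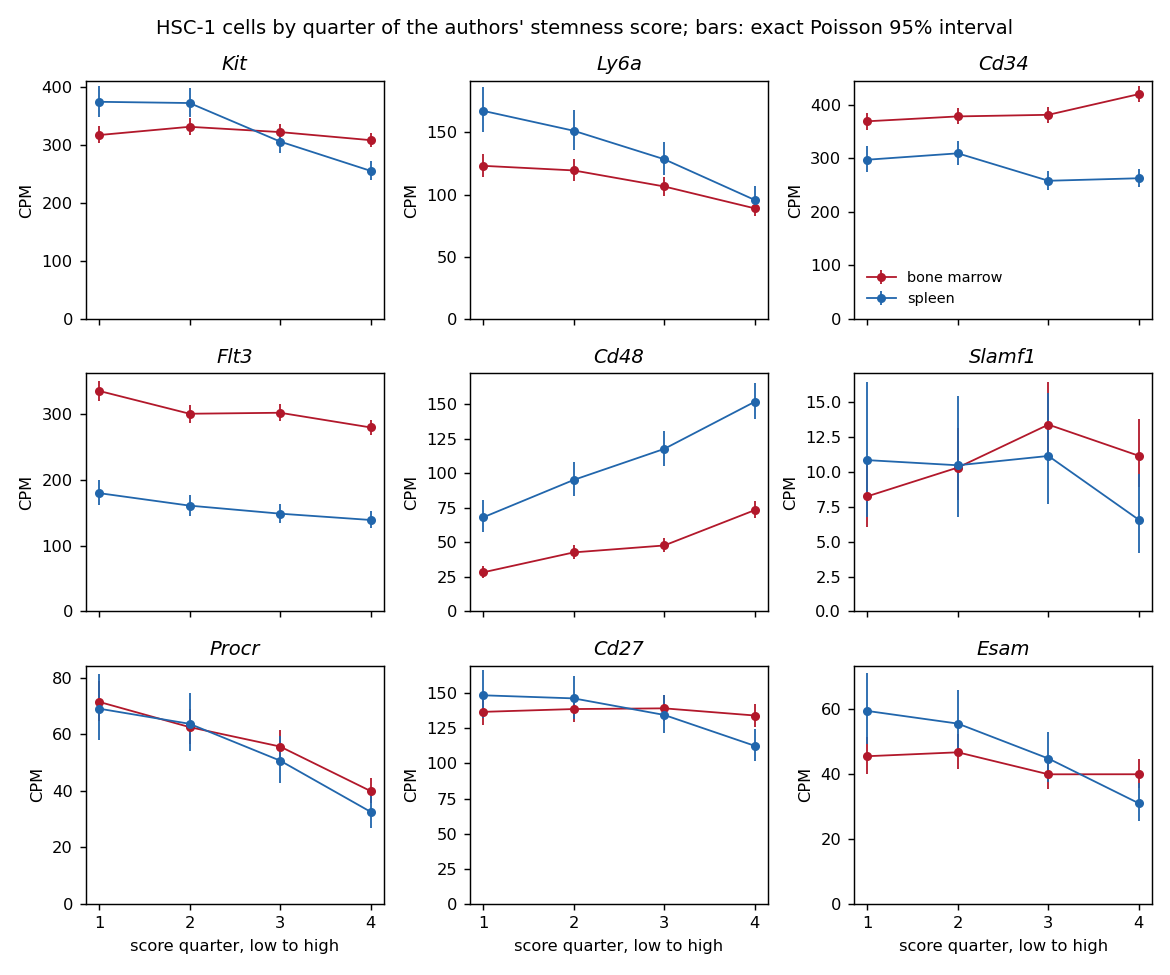
CPM of the 9 genes (y axis, linear from 0) in HSC-1 cells by quartile group of the authors' stemness score, lowest to highest (x axis), for the 2 libraries; bars are exact Poisson 95% intervals, and spleen HSC-1 includes other cell types. Procr and Ly6a decline and Cd48 climbs toward the highest group in both libraries.

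Other genes of the members' pathways were read from lists, each beside the median log2 ratio of all genes, −0.11 over all cells. Of 25 ligands, partners and adaptors, 16 were measured and 0 passed 2-fold in either direction (median −0.03), where 4.15% of all genes were higher and 6.55% lower. The kinase Lyn, which acts below Kit, stood at 71.4 and 107 CPM and the thrombin receptor F2r at 32.1 and 37.0, while the adaptor Gab2 stood at 29.7 and 18.5. The ligands were near absent: Kitl, which encodes stem cell factor, had 21 UMIs in marrow cells and 0 in spleen cells, Cd70, the ligand of CD27, 0 and 4, and Proc, which encodes protein C, 0 and 0. Flt3l, the ligand of Flt3, stood at 8.72 and 7.59 CPM. Without other cell types Lyn turned, to 69.8 and 46.6 CPM over all clusters.

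Of 25 other surface genes of stem and progenitor gates, 21 were measured, 2 at least 2-fold higher, where 4.15% of all genes were, and 6 lower, where 6.55% were, over all cells (median −0.65). The interleukin-7 receptor Il7r stood at 6.79 and 62.7 CPM and the tetraspanin Cd9 at 58.5 and 122. The guidance receptor Robo4 stood at 20.5 and 3.47 CPM. In HSC-1 without other cell types 1 of 21 was higher, where 0.425% of all genes were, and 0 lower, where 0.437% were (median 0.05, against −0.01 for all genes): Robo4 then stood at 30.2 and 23.8 CPM and Il7r at 0.603 and 25.5.

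Families of the members split. In the SLAM family, 6 of 9 genes were measured. Slamf8 (0.651 and 37.8 CPM) and Slamf7 (2.47 and 74.0) were at least 2-fold higher, where 4.15% of all genes were. Cd84 (88.6 and 37.9) was at least 2-fold lower, where 6.55% were, and Ly9 stood at 16.7 and 10.9. Without other cell types in HSC-1, Slamf8 and Slamf7 stood at 0.896 and 1.41 CPM in the spleen. Cd48 was then the 1 of 5 measured that was at least 2-fold higher, where 0.425% of all genes were. In the Ly6 family, 4 of 9 were measured. Ly6d, a gene of committed lymphoid cells, stood at 0.909 and 175 CPM, Ly6e at 629 and 936, and the monocyte gene Ly6c2 at 31.8 and 4.52. Over all clusters without other cell types Ly6e turned, to 625 and 589.9 CPM, and Cd9 of the list above to 57.2 and 42.4. Among the class III receptor kinases, to which Kit and Flt3 belong, Pdgfrb stood at 56.3 and 32.5 CPM over all cells but at 60.6 and 104 in HSC-1 without other cell types.

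Genes most like each member were sought by Pearson r of log2(CPM + 1) over 15 sums of a library and a cluster with at least 100 cells, among 5445 genes; sums of 1 library share that library and its depth. Kit was most like Pde1c (0.97), Tgfbr1 (0.96) and Hpgds (0.95), Ly6a like Gpr65 (0.98), Itm2b (0.98) and Trim26 (0.98), and Cd34 like Ckap4 (0.97), Selenop (0.97) and Dhrs3 (0.96). Flt3 was most like Tcf7l2 (0.98), Plcg2 (0.96) and Retreg1 (0.95), Cd27 like Gmfg, Ablim1 and Cxxc5 (each 0.97), and Esam like Serpina3g (0.91) and Ogfrl1 (0.90). Procr was most like Mink1 (0.91), Myof (0.90) and Tbxas1 (0.88), and Slamf1 like Tgfbr3 (0.88), Def8 (0.86) and Itga6 (0.84). Cd48 had the least close match, Abracl (0.86), then Slc36a3os (0.76) and Cnih4 (0.71). Among the members, Procr and Esam (0.85) and Cd34 and Cd27 (0.82) were most alike, and Kit and Ly6a stood at 0.61.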

How the data were processed

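Single LSK cells were sequenced with the Chromium 3′ assay, 1 library per tissue. The deposited count tables hold whole UMI counts per gene and cell; the authors aligned to mm10 and counted with Cell Ranger 3.1.0, per the labels and design text, while the submitters' processing notes list Seurat 3.1.5 and mm9. Cell filters and doublet handling are not given in the sources used here; all deposited cells were kept and no doublet caller was run. The deposited cell table gives library, cluster, reference labels and a stemness score made by the authors.

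Symbols were paired by Ensembl identifier (30934 of 31053). Counts were summed over cells and scaled to CPM, with exact Poisson intervals, exact intervals of ratios of 2 Poisson counts and exact Clopper-Pearson intervals (95%). The upper limit of a count of 0 was set at 3 counts, and no ratio was formed with 3 or fewer UMIs. No test was run. The sums were tested on simulated counts. Genes are described by size: 2-fold, pseudocount 1 CPM, mean of at least 10 CPM. Clusters were compared with at least 100 cells per library, which leaves out MCP. Cells were thinned to 2000 UMIs for shares. Named genes are the 9 members, the 2 highest and 2 lowest measured genes of each list and the 3 genes most like each member, searched among genes that reach 50 CPM in a sum, without gene models named Gm or Rik; ligands and Cd3e, Ly6g, Flt3l and others outside these were named after their values were seen. Some genes that this rule names are not reported here. The members and lists were chosen with earlier results of these data known. Tools were Python 3.11.15, numpy 2.4.6, scipy 1.17.1, pandas 2.3.3 and, for TMM factors, edgeR 4.0.16. Alternatives are in the closing section.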

Additional observations from a re-analysis of the deposited data

How the results depend on the processing

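The count of members at least 2-fold lower over all cells was 4 as reported, where 6.55% of all measured genes were. It was 2 with TMM scaling (4.11% of genes), 2 with cells thinned to 2000 UMIs (4.06%) and 2 with each cell weighted alike (3.98%). With clusters weighted alike it was 1 (1.11%). Chosen after seeing the data, it was 2 without MEP (3.64%) and 1 without MEP and other cell types (0.402%). The count stayed at 4 with other cell types alone left out (9.49% of genes), but then held Ly6a and not Esam. It also stayed at 4 with a pseudocount of 0.1 CPM (7.02%) and with no minimum of CPM (3.64%). So it did without 325 cells above 2.5 times the median UMIs of their cluster (6.65%) and without shared barcodes (6.56%). The count of members higher, 0, was 1 with each cell weighted alike (Ly6a), where 4.31% of genes were higher. TMM scaling moved the median of all genes from −0.11 to 0.10 and the split from 359 higher and 566 lower to 541 and 355. Weighting clusters alike gave 190 and 97 genes, and leaving out MEP and other cell types 38 and 35.

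The side of Kit over all cells, −0.28 on the log2 scale, turned with thinning (0.058), with each cell weighted alike (0.27), with clusters weighted alike (0.13) and without MEP and other cell types (0.025). That last setting also turned Slamf1 (0.54), Procr (0.026), Cd27 (0.22) and Esam (0.59), and leaving out other cell types turned Ly6a (−1.03). Within clusters, thinning turned Ly6a in HSC-2 (−0.16) and Cd48 in MEP (0.045), and leaving out other cell types turned Cd48 (0.41) and Cd27 (−0.015) in LP. The cause was not tested.

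The share of cells with Kit and Ly6a follows depth: in the bone marrow it was 13.7% at 3700 UMIs, 1.87% at 1000 UMIs, 26.8% not thinned and 0.260% with at least 2 UMIs of each gene. In the spleen it was 13.7%, 4.55%, 37.9% and 1.07%, 5.11% without other cell types and 7.52% in another random draw. At 3700 UMIs the shares were level, but at 1000 UMIs the spleen share was the higher one. It was also higher with at least 2 UMIs of each gene. The main depth left out 300 of 553 spleen MCP cells, and 33.2% of the MCP cells kept held both transcripts. The depth of 3700 UMIs leaves out more cells, and the loss of cells was not separated from the depth. No paired analysis was possible because each group has 1 library and no test was run. Depth limits Slamf1 most, with 735 and 448 UMIs.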
